A study of Arabidopsis thaliana with 12 samples.

Results

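Alternative exons whose length is a multiple of 3 were examined in polyA RNA from germinated seeds of Arabidopsis thaliana. Such exons keep the frame: the codons downstream are read in the same way whether the exon is spliced in or left out. An exon was a member when the deposited splicing table listed it as an exon event with a length divisible by 3, when its inclusion and exclusion reads together came to at least 10 in each of 12 libraries, and when its mean PSI over those libraries lay from 2 to 98. PSI, percent spliced in, is the share of an event's reads, in percent, that support splicing the exon in. Members were thus selected on measured values, namely read number and mean PSI, but not on any difference between groups. Of 92538 exon events in the table, 389 in 363 genes met the rule. In 24 of these genes there were 2 members, and NAI2 held 3. The 12 libraries formed 4 groups of 3 biological replicates: sr34a-1 seeds on mock medium, WT seeds on mock medium, sr34a-1 seeds with ABA and WT seeds with ABA. All had grown for 44 h on MS medium in continuous light before 2 h on MS medium with 0.5 µM ABA or without it. WT was Col-0, and sr34a-1 was the only mutant line, so 1 allele stands for the mutation of SR34A. RNA came from whole seedlings, with all cell types pooled.

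SR34A encodes a serine/arginine-rich (SR) protein, a family of RNA-binding proteins that help the spliceosome recognise splice sites and thereby set whether an exon is spliced in. When an exon of unchanged frame is skipped, the protein loses an internal stretch of amino acids and keeps both ends, unless the exon itself carries a stop codon. An exon with a stop codon in frame can instead cut the protein short and expose the mRNA to nonsense-mediated decay, a route that many SR genes use on their own transcripts. Abscisic acid (ABA) is the hormone that holds back germination and seedling establishment and drives responses to drought and salt.

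The gene count table held 61128187 to 83268758 reads per library. SR34A (AT3G49430) was at 12 to 14.2 CPM (counts scaled to library size) in the 6 sr34a-1 libraries, against 89.9 to 101 CPM in the 6 WT libraries, with no overlap. The seed storage genes CRA1 and CRC ranged from 57.5 to 380 CPM and from 22.8 to 161 CPM over the libraries, the oil body gene OLEO1 from 7.54 to 147 CPM, and the Rubisco gene RBCS1A from 4390 to 7670 CPM, so transcripts of seed stores and of green tissue were both present. Each exon's median number of reads per library ran from 15 to 4988 over the 389 exons, with a median of 156. The SD of PSI within groups had a median of 3.34 points and ran from 0.279 to 22.65 points.

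The sequences of 9 exons are shown first, as examples of exons in coding sequence with a known frame whose inclusion differed between genotypes; they were chosen after their values were seen. Capitals mark the exon, and the 8 lower-case bases on each side are intron. Sequences are from the RefSeq assembly TAIR10.1, on the strand of the gene. The exons are those of AT5G39940 (chr5:15988279-15988392, plus strand), SCA3 (chr2:10251290-10251340, minus), KAC2 (chr5:26167403-26167423, minus), XPB1 (chr5:16552549-16552572, plus), AT1G50140 (chr1:18575748-18575813, minus), AT3G18500 (chr3:6353271-6353336, plus), TAP38 (chr4:13852383-13852415, minus), GP ALPHA 1, also called GPA1 (chr2:11198796-11198873, plus) and AT1G52220 (chr1:19454187-19454273, minus).
AT5G39940: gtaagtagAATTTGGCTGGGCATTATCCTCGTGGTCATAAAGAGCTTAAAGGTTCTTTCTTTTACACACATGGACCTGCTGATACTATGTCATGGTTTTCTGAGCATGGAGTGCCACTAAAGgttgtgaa
SCA3: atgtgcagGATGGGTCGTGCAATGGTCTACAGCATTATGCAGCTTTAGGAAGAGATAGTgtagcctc
KAC2: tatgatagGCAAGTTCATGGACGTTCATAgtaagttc
XPB1: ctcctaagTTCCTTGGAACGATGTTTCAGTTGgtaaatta
AT1G50140: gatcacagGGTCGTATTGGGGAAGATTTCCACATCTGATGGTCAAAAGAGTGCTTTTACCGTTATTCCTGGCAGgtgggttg
AT3G18500: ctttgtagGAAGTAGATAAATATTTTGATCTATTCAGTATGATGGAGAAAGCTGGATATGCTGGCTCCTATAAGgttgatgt
TAP38: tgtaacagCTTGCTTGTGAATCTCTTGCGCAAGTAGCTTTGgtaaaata
GP ALPHA 1: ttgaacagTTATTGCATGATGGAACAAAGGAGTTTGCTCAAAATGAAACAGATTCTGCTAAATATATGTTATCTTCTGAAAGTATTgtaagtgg
AT1G52220: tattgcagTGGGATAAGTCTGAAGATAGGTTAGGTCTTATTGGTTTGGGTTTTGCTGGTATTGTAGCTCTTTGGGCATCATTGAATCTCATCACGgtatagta

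A second set of 5 exons holds a stop codon in the reading frame that the annotation sets upstream, so that translation in that frame would end at the exon. The exon is in lower case and its first stop codon in frame is in capitals. They belong to SR45a (chr1:2258750-2258830, minus), MOS14 (chr5:25127557-25127607, minus), GLT1 (chr5:21701958-21702062, plus), AT1G63420 (chr1:23517362-23517394, plus) and CIPK3 (chr2:11516427-11516480, minus). The stop begins at base 13 of the exon in SR45a, base 18 in MOS14, base 52 in GLT1, base 8 in AT1G63420 and base 46 in CIPK3.
SR45a: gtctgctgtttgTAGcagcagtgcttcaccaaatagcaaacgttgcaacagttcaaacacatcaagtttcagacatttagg
MOS14: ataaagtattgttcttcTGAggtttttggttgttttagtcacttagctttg
GLT1: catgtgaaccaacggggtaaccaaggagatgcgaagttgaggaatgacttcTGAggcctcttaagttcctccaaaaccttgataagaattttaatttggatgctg
AT1G63420: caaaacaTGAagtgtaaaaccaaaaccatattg
CIPK3: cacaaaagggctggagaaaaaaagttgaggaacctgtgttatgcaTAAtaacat

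The shortest members are microexons, and 3 of them inside coding sequence are shown with the exon in capitals and 8 intron bases on each side, because their whole sequence is only 6 or 9 bases. They lie in AT5G18230 (chr5:6026595-6026600, minus), A/N-InvC (chr3:2013424-2013429, plus) and AT2G30695 (chr2:13079926-13079934, minus). The 6 added bases are a pair of codons in AT5G18230 and A/N-InvC, where the exon starts at a codon boundary.
AT5G18230: ttatgcagTGGAATgtgagcag
A/N-InvC: tgttccagTTCCAGgtatgtct
AT2G30695: caggaaagACCCCAAATgtaagttt

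By place in the gene, 149 of the 389 exons (38.3%) were annotated as coding sequence, 77 (19.8%) lay inside the coding span but were not annotated as coding, 69 (17.7%) lay in the 5′ UTR and 8 in the 3′ UTR. A further 21 held a start or stop codon, 12 were in noncoding transcripts, and for 53 between the first and last coding base no frame could be set from the annotation. Inclusion differed widely between these places, as a description of the values on which membership rests. The median of the mean PSI was 94.55 for exons annotated as coding, 30.83 for those in the 5′ UTR and 8.05 for those inside the coding span but not annotated as coding. Of the 77 in this last group, 53 (68.8%) had a stop codon in frame, with a median PSI of 8.03, and 23 had none, with a median of 11.09. The exons of length not divisible by 3 that met the same limits on reads and PSI, 726 in number, had a near share of stops in the matching group (100 of 144, 69.4%) and a near share annotated as coding (268, 36.9%). The difference between these shares was not tested.

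**Figure D1:**
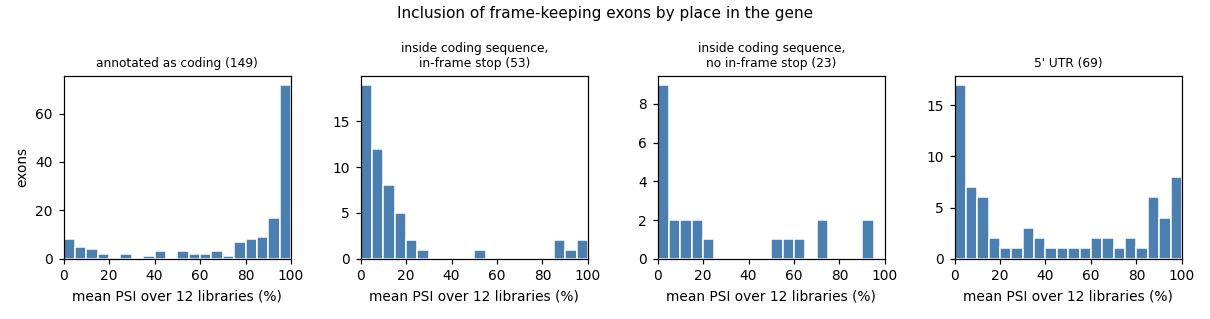
Number of frame-keeping exons (vertical axes) by mean PSI over 12 libraries in percent (horizontal axes), for 4 places in the gene with the number of exons in brackets. The 149 exons annotated as coding pile up near full inclusion, the 53 with an in-frame stop inside the coding span lie mostly at low PSI, and the 69 in the 5′ UTR are found at both ends.

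Over all members the median PSI was 78.75: 85 exons had a mean PSI of 2 to 10, 65 of 10 to 50, 86 of 50 to 90 and 153 of 90 to 98. At the lower limit the nearest members were exons of I-2, AT2G20100 and AT3G46870 (2.05, 2.06 and 2.07) and the nearest exons outside it were at 1.90, 1.96 and 1.97; at the upper limit AGL31, WRNEXO and AT1G30845 were inside (97.987, 97.987 and 97.998) and the nearest outside were at 98.01, 98.04 and 98.05. Exon length had a median of 66 bases and ran from 6 to 1152 bases; 40 members were 27 bases or shorter, and 11 were longer than 300. Where the phase at the start of the exon was known, 143 of 226 (63.3%) began at a codon boundary, 47 (20.8%) after the first base of a codon and 36 (15.9%) after the second, against 177 (43.5%), 120 (29.5%) and 110 of 407 frame-shifting exons; these shares were not compared by a test. An exon of the first kind adds or removes whole codons and leaves its neighbours as they are. All 389 followed an AG acceptor, and 378 preceded a GT donor and 11 a GC donor. The annotation held transcripts with both the included and the skipped form for 119 members, only the included form for 97, only the skipped form for 126 and neither for 47.

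Genotype was compared by fitting all 28000 events of every type that met the limits on reads and mean PSI, with limma on log2 of the ratio of inclusion to exclusion reads. An event was called at a Benjamini-Hochberg adjusted p under 0.05 over all 28000. With both treatments averaged, 54 of the 389 exons (13.9%) in 52 genes differed between sr34a-1 and WT, 31 with higher and 23 with lower inclusion in sr34a-1. Over all 28000 events 2.19% were called in that comparison (1.31% higher and 0.886% lower), and among the 726 frame-shifting exons 104 (14.3%), so exons of either kind were called more often than the whole table, which is mostly introns and alternative sites; the difference was not tested. The 54 exons had a median absolute difference of 7.49 PSI points, and 22 differed by at least 10 points and 17 by under 5. The 335 exons not called had a median absolute difference of 2.28 points, and 14 of them differed by at least 10. In 8 of the 54 the mean PSI of 1 genotype lay outside the limits of 2 and 98, so that the exon was a member only through the other genotype's libraries and had to differ; these are the exons of MOS14, EML3, AT5G63460, AGL31, TAP38, BNS, AT3G06440 and AT4G33080, whose values are a description. Of the 54 calls, 37 held when any 1 of the 12 libraries was left out, or 32 of the 46 others. When the variance was not allowed to follow the sampling variance expected from an event's inclusion and exclusion reads, 10 remained. They were the exons of AT5G39940, SCA3, AT3G18500, AT3G56580, GP ALPHA 1, TAP38, AT1G52220, AT5G48335, AT5G63460 and MOS14. Of these, AT5G63460, MOS14 and TAP38 are among the 8.

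Within each treatment the counts were smaller. On mock medium 18 exons (4.63%) were called, 4 higher and 14 lower in sr34a-1, where 0.529% of all events were called (0.239% higher and 0.289% lower). With ABA 26 exons (6.68%) were called, 17 higher and 9 lower, where 0.793% of all events were called (0.454% higher and 0.339% lower). Without a variance that follows the sampling variance, these counts were 1 and 0. The mock count includes the exons of TAP38 and AT5G63460. The ABA count includes those of TAP38, AGL31, CYCH;1 and AT3G49350. Each of these exons met the limits on mean PSI only through the libraries of 1 genotype. A rule without a p-value, which asked for a difference of at least 15 points and a gap of at least 5 points between the groups, was met by 12 exons on mock medium (0.571% of all events), 9 with ABA (0.586%) and 4 with treatments averaged (0.132%). The exons called in both treatments numbered 11, and each went the same way in both; 7 were called on mock medium alone and 15 with ABA alone. Whether the genotype difference itself changed with ABA was tested as an interaction, and limma called none of the 389 exons and 0.0% of all events; 37 exons (9.51%) had an unadjusted p under 0.05, as did 4.74% of all events. In all, 57 exons in 55 genes were called in at least 1 of the 3 genotype comparisons. Neither this count nor the overlap between treatments was taken over all events. They therefore do not set these exons apart from other events.

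**Figure D2:**
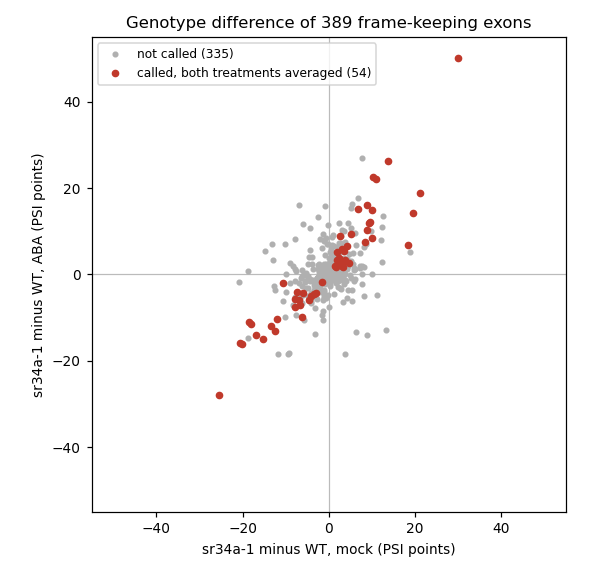
Difference in mean PSI, sr34a-1 minus WT, in points, on mock medium (horizontal axis) and with ABA (vertical axis), 1 point for each of the 389 exons. Red points are the 54 called with both treatments averaged and grey points the 335 not called; the AT5G24205 exon lies farthest up and the AT5G39940 exon farthest down.

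The largest decrease in sr34a-1 among the called exons was in the 114-base coding exon of AT5G39940, a gene annotated as an FAD/NAD(P)-binding oxidoreductase. PSI was 71.8, 57.9 and 70.0 in sr34a-1 mock libraries, against 90.9, 95.8 and 89.2 in WT mock libraries. With ABA it was 65.4, 59.3 and 54.8 in sr34a-1, against 89.0, 88.5 and 86.0 in WT. Every sr34a-1 library was below every WT library in both treatments, and the averaged difference was -26.7 points (log2 ratio difference -2.43 ± 0.21 SE, limma adjusted p 6.73e-10). The gene's RNA level, which sums all its isoforms, did not pass the test (log2 fold change -0.09, edgeR adjusted p 0.0997). In such pooled tissue, fewer cells of a type and less RNA per cell cannot be told apart.

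The 51-base coding exon of SCA3, which encodes a plastid RNA polymerase, fell as well. Its PSI was 80.02, 77.0 and 76.4 in sr34a-1 mock libraries, against 97.1, 96.2 and 94.4 in WT mock libraries. In the ABA libraries it was 86.1, 83.9 and 83.8 in sr34a-1, against 97.3, 96.0 and 94.6 in WT. The groups did not overlap in either treatment, on 395 to 742 reads per library, and the averaged difference was -14.8 points (limma adjusted p 2.25e-10). The skipped form was not in the annotation used here. Total SCA3 RNA was higher in sr34a-1 at the same time, with a log2 fold change of 0.38 (edgeR adjusted p 2.81e-05).

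TAP38 encodes the phosphatase that dephosphorylates the light-harvesting antenna of photosystem II, and AT1G52220 a protein of the curvature thylakoid family, which shapes the edges of the photosynthetic membrane stacks. The 33-base exon of TAP38 had PSI of 87.3, 92.7 and 90.9 in sr34a-1 mock libraries and 89.5, 92.4 and 91.2 in sr34a-1 ABA libraries, against 98.4, 98.8 and 97.4 in WT mock and 98.8, 97.9 and 99.3 in WT ABA libraries. The 87-base exon of AT1G52220 rested on 4117 to 7113 reads per library, the most of any member. Its PSI was 88.4, 88.9 and 86.6 in sr34a-1 mock and 87.4, 85.5 and 87.5 in sr34a-1 ABA libraries, against 94.6, 95.1 and 94.4 in WT mock and 94.7, 93.2 and 93.4 in WT ABA libraries. For both exons all sr34a-1 values were below all WT values. The averaged difference was -6.89 points in AT1G52220 (limma adjusted p 1.74e-12). It was -7.73 points in TAP38, which met the upper limit on mean PSI only through its sr34a-1 libraries, so that no test is given for it. AT1G52220 RNA was also lower in sr34a-1 (log2 fold change -0.45, edgeR adjusted p 2.89e-06), and TAP38 RNA did not pass the test (0.05, adjusted p 0.307).

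The 78-base exon of GP ALPHA 1, the gene for the alpha subunit of the heterotrimeric G protein, which relays receptor signals at the plasma membrane, was also included less in sr34a-1. Its PSI was 92.5, 86.3 and 90.6 in sr34a-1 mock libraries, against 96.1, 96.3 and 95.8 in WT mock libraries, and 87.7, 86.2 and 88.1 in sr34a-1 ABA libraries, against 95.7, 97.5 and 98.5 in WT ABA libraries. No values overlapped between genotypes within a treatment, and the averaged difference was -8.09 points (limma adjusted p 1.89e-08). The 66-base exon of AT3G18500, a gene of the DNAse I-like family, had means of 71.5 ± 0.295 in sr34a-1 and 92.1 ± 1.27 in WT on mock medium, and 72.7 ± 8.81 in sr34a-1 and 88.6 ± 3.98 in WT with ABA (SD, n = 3 each). The averaged difference was -18.3 points (limma adjusted p 2.8e-05), and the gene's RNA was higher in sr34a-1 by a log2 fold change of 0.88 (edgeR adjusted p 1.48e-08). A 132-base exon of AT5G48335, a gene to which no role is assigned here, differed by -5.24 points on 1074 to 1590 reads per library, with means of 91.2 in sr34a-1 and 95.7 in WT on mock medium and 90.8 in sr34a-1 and 96.7 in WT with ABA (limma adjusted p 4.32e-07).

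Of the 28 called exons annotated as coding (of 149), 14 rose and 14 fell in sr34a-1. Among those that fell, the exons named so far were joined by those of AMSH2 (a deubiquitinating enzyme, -12.7 points), AT1G76280 (-12.8), BSH (a subunit of the SWI/SNF chromatin remodelling complex, -6.49) and AT4G10430 (-5.17), which all held in each of the 12 fits that left out a library. The 69-base exon of AT3G56160 had 82.0, 89.5 and 89.8 in sr34a-1 mock libraries, against 93.7, 99.5 and 100 in WT mock libraries. With ABA the genotypes overlapped, at 95.1, 89.6 and 94.3 in sr34a-1, against 90.7, 95.04 and 99.3 in WT, and the averaged call (-6.31 points, limma adjusted p 0.0283) was lost in 8 of 12 fits that left out a library, with an adjusted p of up to 0.112 without WT ABA replicate 3. The 36-base exon of AT5G63460, a gene for a SAP domain protein, was read 0 times in all 3 sr34a-1 mock libraries, where 169 to 191 reads allow a PSI of up to 1.57 to 1.78. With ABA its PSI was 0, 1.18 and 0 in sr34a-1, against 5.72, 6.66 and 2.04 in WT, and on mock medium WT had 3.27, 3.82 and 3.61. The genotypes did not overlap, but inclusion was rare in both, and the exon met the lower limit on mean PSI only through its WT libraries.

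Several coding exons moved the other way. The 21-base exon of KAC2, which encodes a kinesin-like protein needed for chloroplast movement along actin, had PSI of 47.3, 42.9 and 41.9 in sr34a-1 mock libraries, against 25, 29.1 and 14.8 in WT mock libraries. With ABA it was 46.3, 54.1 and 42.9 in sr34a-1, against 23.4, 29.0 and 34.0 in WT. All sr34a-1 values were above all WT values, with an averaged difference of 20.01 points (limma adjusted p 0.0022). Reads at its 2 inclusion junctions were uneven, 22 upstream and 316 downstream over all libraries, and the part of this in the difference was not tested.

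The 24-base exon of XPB1, which encodes a DNA helicase of repair and transcription initiation, lay inside the coding span but was not annotated as coding, and it has no stop codon in frame. PSI was 61.5, 59.3 and 54.3 in sr34a-1 mock libraries, against 44.9, 47.2 and 41.6 in WT mock libraries. With ABA it was 52.4, 69.0 and 76.6 in sr34a-1, against 44.9, 36.7 and 37.6 in WT. The genotypes did not overlap in either treatment, and the averaged difference was 20.02 points (limma adjusted p 0.000671). Under ABA alone the adjusted p was 0.00358, and it was 0.0527 without sr34a-1 ABA replicate 3, the highest library.

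The 66-base coding exon of AT1G50140, a gene of the P-loop nucleoside triphosphatase superfamily, rose in both treatments. It stood at 66.5, 61.0 and 62.9 in sr34a-1 mock libraries, against 45.4, 44.0 and 42.3 in WT mock libraries, and at 60.6, 57.9 and 61.4 in sr34a-1 ABA libraries, against 45.0, 38.6 and 53.9 in WT ABA libraries. The averaged difference was 16.9 points with no overlap (limma adjusted p 7.55e-06). Under ABA alone the limma adjusted p was 0.0197, and it was above 0.05 in 4 of the 6 fits that left out an ABA library, up to 0.174 without WT ABA replicate 2. In AT5G17530, a gene of the phosphoglucosamine mutase family, a 216-base coding exon (chromosome 5, 5778076 to 5778291) had 84.1 ± 2.77 in sr34a-1 and 74.1 ± 1.27 in WT on mock medium, and 86.3 ± 1.98 in sr34a-1 and 71.2 ± 3.03 in WT with ABA (SD, n = 3 each). The averaged difference was 12.5 points (limma adjusted p 3.42e-08). A 60-base exon of the same gene upstream of it, which holds a stop codon in frame, rose as well, to 8.44 and 7.19 in sr34a-1 on mock medium and with ABA, against 4.65 and 3.73 in WT (difference 3.62 points, limma adjusted p 0.00381).

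Other coding exons with higher inclusion in sr34a-1 were the 93-base exon of LPP3, a lipid phosphate phosphatase (difference 9.20 points, limma adjusted p 0.00035), the 75-base exon of the cyclin gene AT5G45190 (7.91 points, 6.14e-05), the 69-base exon of AT2G38780 (5.43 points, 0.00162) and the 27-base exon of FSD2, a chloroplast iron superoxide dismutase (2.57 points, 0.00785). The 42-base exon of AGL31, a MADS-box factor of flowering time, differed by 1.66 points and met the upper limit on mean PSI only through its WT libraries. LPP3 values were 45.5, 47.3 and 46.7 in sr34a-1 mock and 45.6, 42.0 and 41.2 in sr34a-1 ABA libraries, against 37.4, 36.3 and 35.7 in WT mock and 36.8, 33 and 33.8 in WT ABA libraries. These values do not overlap, on 591 to 1010 reads per library. In CYCH;1, a cyclin that activates cyclin-dependent kinases, a 42-base exon was called with ABA only: 100, 97.5 and 100 in sr34a-1, against 93.7, 92.4 and 87.7 in WT (7.88 points). The mean of its 6 sr34a-1 libraries was 98.19, so this exon too was a member only through its WT libraries, and the call was lost without WT ABA replicate 3. On mock medium the same exon had 97.1, 96.5 and 98.1 in sr34a-1 and 98.1, 98.5 and 98.7 in WT.

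**Figure D3:**
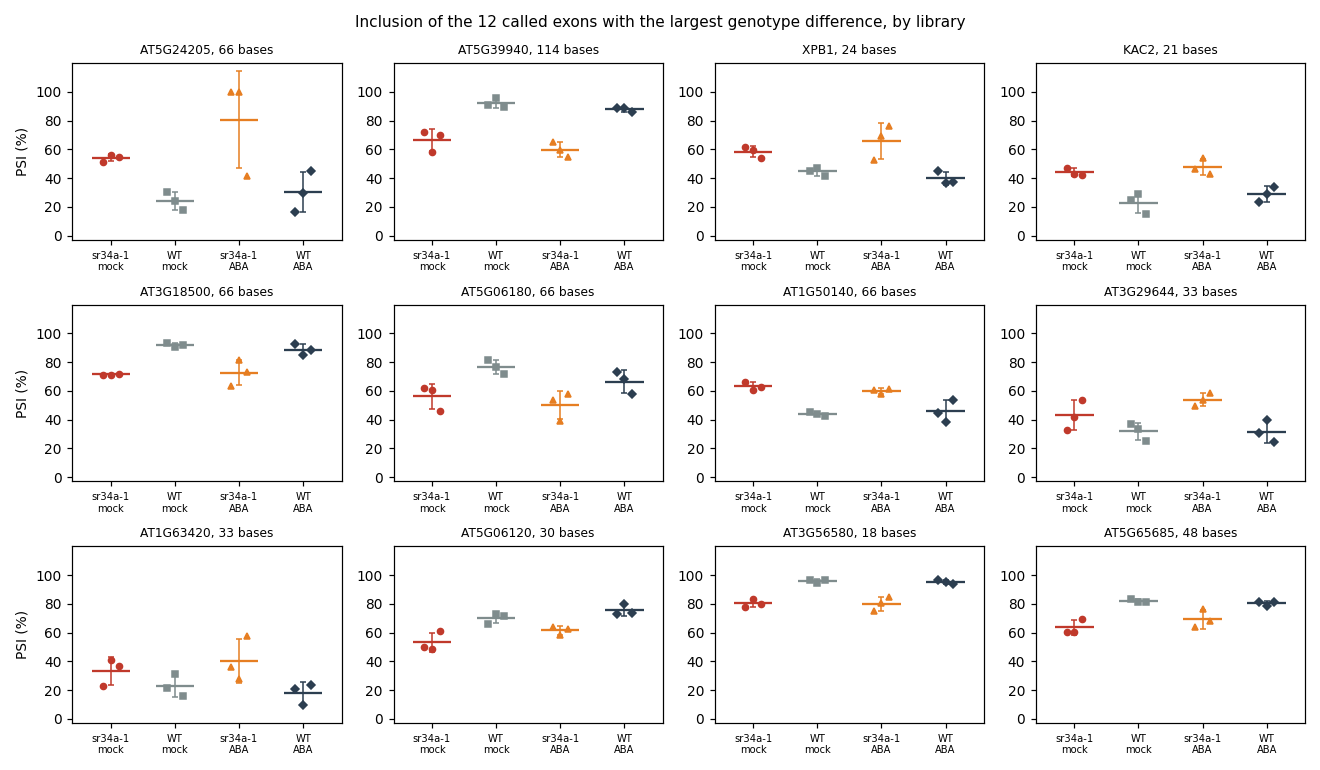
PSI in percent (vertical axes) in each library of the 12 called exons with the largest averaged genotype difference, by group along the horizontal axes. Points are libraries, horizontal bars means and whiskers the SD of 3 libraries (a whisker may pass 100, where PSI ends); 6 exons lie higher in sr34a-1 and 6 lower.

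Among exons inside the coding span, the 66-base exon of AT5G06180, a gene related to a factor of mitochondrial fission, has no stop codon in frame and fell by 18.1 points (limma adjusted p 0.00196). It had 62.0, 60.6 and 46.3 in sr34a-1 mock libraries, against 81.3, 76.3 and 71.6 in WT mock libraries, without overlap. With ABA the genotypes overlapped, at 53.8, 39.3 and 57.8 in sr34a-1, against 73.2, 68.3 and 57.7 in WT. The 48-base exon of AT5G65685, a UDP-glycosyltransferase family gene, has no frame set by the annotation and fell by 14.9 points (limma adjusted p 0.00032). Its mock values were 60.7, 60.5 and 69.6 in sr34a-1, against 83.5, 81.6 and 81.5 in WT, and its ABA values 63.6, 76.4 and 67.8 in sr34a-1, against 81.5, 78.5 and 81.1 in WT. These groups were apart in both treatments, but nearly all of its inclusion reads came from the downstream junction (1933, against 2 upstream).

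The largest difference among the called exons was in a noncoding transcript, AT5G24205, and it rested on few reads. Its 66-base exon had PSI of 51.3, 56.0 and 54.8 in sr34a-1 mock libraries, against 30.1, 24.2 and 17.9 in WT mock libraries, and of 100, 100 and 41.6 in sr34a-1 ABA libraries, against 16.4, 29.9 and 44.8 in WT ABA libraries. The ABA groups overlapped, with 10 to 48 reads per library. The averaged difference was 40.1 points (limma adjusted p 0.00951). The gene's RNA was lower in sr34a-1 (log2 fold change -1.11, edgeR adjusted p 0.000848), at a mean of 0.883 CPM. A 33-base exon of another noncoding transcript, AT3G29644, differed by 16.6 points (limma adjusted p 0.0104), and its adjusted p was 0.0612 without sr34a-1 mock replicate 3 and 0.0509 without WT mock replicate 3.

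Among the 55 exons with a stop codon in frame, 10 were called with treatments averaged, 7 higher and 3 lower in sr34a-1, against 31 of the 172 with a known frame and no stop (16 higher, 15 lower), a difference in share that was not tested. The 7 include the exons of MOS14 and EML3, which were members only through their sr34a-1 libraries and so had to be higher there. The 31 also include members through 1 genotype only, among them the exons of TAP38 and AGL31. The gene lists chosen for SR proteins (20 genes), other splicing factors (15), ABA signalling (18), nonsense-mediated decay (4) and the circadian clock (10) held 4 members. Of these, 1 was called: the 81-base exon of SR45a, which encodes an SR-like splicing factor. Its PSI was 55.6, 55.4 and 54.8 in sr34a-1 mock libraries, against 39.9, 49.3 and 50.2 in WT mock libraries, and 53.1, 62.6 and 70.5 in sr34a-1 ABA libraries, against 46.6, 46.6 and 44.6 in WT ABA libraries. Within each treatment the genotypes did not overlap, and the averaged difference was 12.5 points (limma adjusted p 0.0135). The adjusted p was 0.0638 without WT mock replicate 1 and 0.0571 without sr34a-1 ABA replicate 3. Its upstream junction carried 95 reads and its downstream junction 1524.

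MOS14 encodes the importer that carries SR proteins into the nucleus. Its 51-base exon with a stop codon was rare in WT and less rare in sr34a-1: PSI was 2.99, 4.53 and 3.62 in sr34a-1 mock libraries, against 0.52, 0.37 and 0.91 in WT mock libraries, and 1.79, 3.26 and 5.52 in sr34a-1 ABA libraries, against 0.84, 0.76 and 0.29 in WT ABA libraries. The genotypes did not overlap, and the averaged difference was 3.00 points on 176 to 277 reads per library. This exon met the lower limit on mean PSI only through its sr34a-1 libraries, so that no test is given for it. MOS14 RNA in total was higher in sr34a-1 by a log2 fold change of 0.13 (edgeR adjusted p 0.0158).

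The 105-base exon of GLT1, which encodes the NADH-dependent glutamate synthase of nitrogen assimilation, had PSI of 20.4, 19.3 and 20.3 in sr34a-1 mock libraries, against 17.4, 18.3 and 15.4 in WT mock libraries. With ABA it was 21.0, 22.3 and 19.1 in sr34a-1, against 14.3, 13.9 and 16.6 in WT. The genotypes were apart by 4.38 points on average, on 1007 to 1953 reads per library (limma adjusted p 0.00706). CIPK3, a protein kinase that works with calcium sensors in stress and ABA responses, went the other way: its 54-base exon had 11.8, 13.1 and 15.4 in sr34a-1 mock libraries, against 19.8, 21.6 and 20.7 in WT mock libraries. With ABA it had 17.6, 19.2 and 14.5 in sr34a-1, against 23.99, 19.9 and 19.6 in WT, again without overlap (difference -5.69 points, limma adjusted p 0.0024). CIPK3 RNA was higher with ABA than with mock by a log2 fold change of 0.72 (edgeR adjusted p 1.18e-06).

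The other called exons with a stop were those of EML3 (228 bases, difference 2.49 points), AT3G08620 (156 bases, 5.80), AT1G63420 (33 bases, 16.4), AT4G33060 (87 bases, -3.64) and AT3G02300 (81 bases, -4.48). The exon of EML3 met the lower limit on mean PSI only through its sr34a-1 libraries, since its mean in WT was 1.84. In AT1G63420, an O-glucosyltransferase-like gene, the sr34a-1 and WT mock libraries overlapped (22.6, 40.8 and 36.6 against 21.7, 31.2 and 16.1). Its limma adjusted p of 0.0342 rose above 0.05 in 6 of the 12 fits that left out a library, up to 0.143 without sr34a-1 ABA replicate 3. AT3G08620 and AT3G02300 each lost the call in 8 of 12, with adjusted p of up to 0.091 (without sr34a-1 mock replicate 2) and 0.119 (without WT mock replicate 2).

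**Figure D4:**
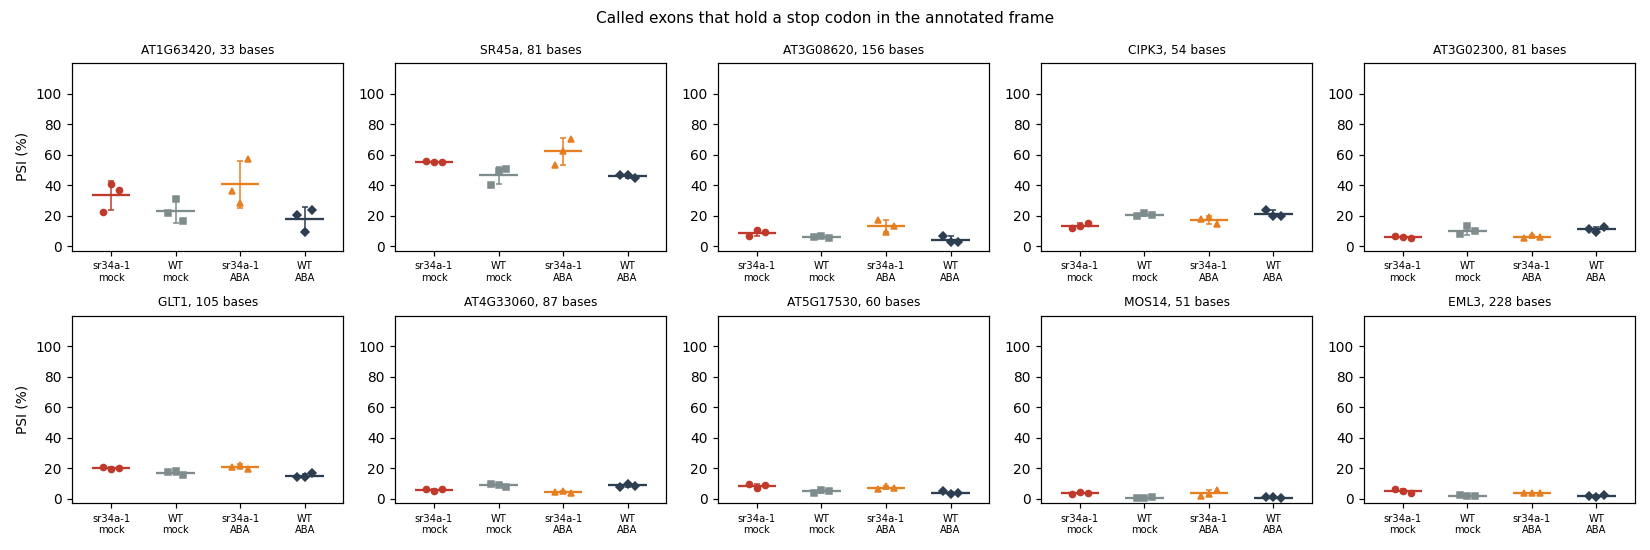
PSI in percent (vertical axes) by group (horizontal axes) for the 10 called exons that hold a stop codon in frame. Points are libraries, horizontal bars means and whiskers the SD of 3 libraries; SR45a has the highest inclusion, from 39.9 to 70.5, and MOS14 and EML3 the lowest, at most 5.52 and 5.97.

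In the 5′ UTR, where an exon changes the leader and not the protein, 7 of 69 exons were called with treatments averaged, 5 higher and 2 lower in sr34a-1. The 18-base exon of AT3G56580, a gene for a RING/U-box protein, fell: it had 78.1, 83.6 and 79.96 in sr34a-1 mock and 75.2, 80.4 and 84.9 in sr34a-1 ABA libraries, against 96.7, 94.2 and 96.4 in WT mock and 96.9, 95.1 and 93.6 in WT ABA libraries. All sr34a-1 values lay below all WT values (difference -15.1 points, limma adjusted p 1.22e-06), but the downstream junction carried 5 reads where the upstream junction carried 1933, so its PSI rests on 1 side. The 30-base exon of AT5G06120 (ARM repeat protein) fell by 15.4 points (limma adjusted p 0.000802), with means of 53.1 in sr34a-1 and 70.0 in WT on mock medium, and 61.5 in sr34a-1 and 75.5 in WT with ABA. The 51-base exon of PPH, the pheophytinase of chlorophyll breakdown, rose by 10.6 points (0.00032), with 80.3, 78.9 and 79.3 in sr34a-1 mock and 82.7, 79.7 and 81.6 in sr34a-1 ABA libraries, against 71.2, 72.9 and 66.4 in WT mock and 61.9, 72.7 and 73.6 in WT ABA libraries. All PPH values in sr34a-1 were above all those in WT.

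A 42-base exon upstream of the coding sequence of HDG2, a homeodomain factor of epidermal cells, rose by 10.9 points (limma adjusted p 0.00865), though sr34a-1 and WT mock libraries overlapped (91.6, 96.7 and 85.8 against 88.2, 82.5 and 83.3). In APX1, the cytosolic ascorbate peroxidase, a rare 153-base exon rose on 3194 to 5105 reads per library: PSI was 4.40, 4.09 and 4.15 in sr34a-1 mock and 5.10, 4.95 and 4.59 in sr34a-1 ABA libraries, against 2.6, 2.99 and 2.50 in WT mock and 2.50, 3.02 and 3.25 in WT ABA libraries. The difference was small and without overlap (1.74 points, limma adjusted p 5.66e-05). HEMB1, an enzyme of tetrapyrrole synthesis, had a 57-base exon with means of 13.4 in sr34a-1 and 11.2 in WT on mock medium and 13.8 in sr34a-1 and 10.1 in WT with ABA, with overlap on mock medium (2.99 points, limma adjusted p 0.00303). UGT80B1, a sterol glucosyltransferase, had a 96-base exon called with ABA only (-13.7 points, limma adjusted p 0.0473), and that call was lost in each of the 6 fits that left out 1 of its ABA libraries, with an adjusted p of up to 0.165.

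Few exons were called for a change with ABA. Among the 389 exons limma called 1 in WT (0.257%, against 0.0179% of all events), 0 in sr34a-1 (0.0286% of all events) and 1 with genotypes averaged (0.075% of all events). At an unadjusted limma p under 0.05 there were 40, 53 and 54 exons (10.3%, 13.6% and 13.9%), where 5.77%, 6.19% and 7.06% of all events passed. The difference between these shares was not tested. The rule without a p-value was met by 1 exon in WT (0.261% of all events), 1 in sr34a-1 (0.282%) and 0 with genotypes averaged (0.0179%). The called exon was the same, a 72-base exon in the 5′ UTR of AT4G05040, an ankyrin repeat gene (chromosome 4, 2579601 to 2579672). In WT its PSI was 37.5, 40 and 43.7 with ABA, against 59.1, 62.4 and 64.2 on mock medium. In sr34a-1 it was 37.2, 50.03 and 43.8 with ABA, against 51.7, 46.6 and 48.6 on mock medium, and these groups overlapped. The difference was -21.5 points in WT (limma adjusted p 0.026), and that adjusted p rose above 0.05, up to 0.227, in each fit that left out a WT library except WT ABA replicate 3. With genotypes averaged the difference was -13.4 points (limma adjusted p 0.0379), and the call held in 3 of 12 such fits.

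The other 3 members in listed genes were called in no comparison. RS31, an SR protein gene, has a 393-base exon with a stop codon whose PSI was 13.2 ± 1.39 in sr34a-1 and 10.7 ± 2.64 in WT on mock medium, and 12.4 ± 2.58 in sr34a-1 and 10.4 ± 1.29 in WT with ABA (SD, n = 3 each). Reads at the junctions of the RS31 exon were uneven, 2096 upstream and 339 downstream, so PSI may not measure its skipping. PTB1, a polypyrimidine tract-binding protein gene, has a 102-base exon that holds a start or stop codon, with 17.2 ± 2.297 in sr34a-1 and 20.4 ± 1.73 in WT on mock medium, and 19.997 ± 3.64 in sr34a-1 and 22.2 ± 0.389 in WT with ABA. ABF2, a bZIP factor that binds ABA-responsive elements, has a 33-base coding exon with 9.20 ± 3.42 in sr34a-1 and 12.9 ± 5.92 in WT on mock medium, and 11.5 ± 4.74 in sr34a-1 and 10.2 ± 2.49 in WT with ABA. Its gene level was higher with ABA than with mock by a log2 fold change of 0.85 (edgeR adjusted p 3.91e-08). No member lay in the 4 nonsense-mediated decay genes or the 10 clock genes listed.

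The 6 shortest members, of 6 or 9 bases, were called in no comparison. The exon of AT5G18230 had the most reads among them, 903 to 1305 per library, and its PSI was 30.1, 30.4 and 28.4 in sr34a-1 mock libraries, 24.7, 28.7 and 29.3 in WT mock, 30.6, 25.6 and 26.6 in sr34a-1 ABA and 27.8, 32.6 and 27.1 in WT ABA libraries. The range over all 12 libraries was under 10 points. The 6-base exon of A/N-InvC, an alkaline/neutral invertase gene, ran from 0 to 6.72, and the 9-base exon of AT2G30695 from 49.3 to 87.5 on 36 to 83 reads per library. At AT2G30695 the upstream junction carried 0 reads and the downstream junction 156. A 9-base exon of WOL, the cytokinin receptor gene, ran from 83.0 to 100, with 0 reads at its upstream junction and 1109 at its downstream one. The 6-base exon of AT3G11950 ran from 15.8 to 55.3 and that of AT1G70630 from 0 to 11.8 on as few as 11 reads. At AT3G11950 the upstream junction carried 43 reads and the downstream junction 368. At the other end, PSI was 94.6 to 100 in the 1032-base exon of FRS7 and 93.4 to 100 in its 1152-base exon. The upstream and downstream junctions carried 9 and 3527 reads in the 1032-base exon, and 3304 and 9 in the 1152-base exon. PSI may therefore not measure skipping for these FRS7 exons. A 738-base exon of emb1579 was included at 78.8 to 89.5 PSI.

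Of 362 host genes tested with edgeR, 123 (34.0%) differed between sr34a-1 and WT with treatments averaged, 72 higher and 51 lower, where 33.9% of all genes were called. Between ABA and mock 149 (41.2%) differed, 78 higher and 71 lower, where 51.2% of all genes were called. These shares lay close to or under those of all genes. A called log2 fold change of at least 1 was found in 2 host genes for genotype and 6 for ABA. Among all 21256 genes it was found in 362 and 1572. Among the 52 host genes of exons called with treatments averaged, 23 also differed in level between genotypes, or 29 with the replicate number as a block.

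The host genes with the most counts were NAI2, which is needed to form the endoplasmic reticulum bodies of seedlings (1393 CPM, not corrected for gene length), GLT1 (875.1), APX1 (829.8), AT1G63770, an aminopeptidase gene (449), and HEMB1 (377.7). The 3 coding exons of NAI2, of 48, 69 and 66 bases, were nearly always included, with PSI from 94.2 to 99.6, from 94.9 to 99.6 and from 96.8 to 98.5 over the 12 libraries, and none was called. Reads at the upstream and downstream junctions were uneven in the 48-base exon (25795 and 1576) and the 66-base exon (1377 and 33072). The 87-base exon of AT1G63770 fell by 6.70 points (limma adjusted p 0.00232), with 3 reads at its upstream junction and 19817 at its downstream one. It had 52.9, 56.8 and 53.6 in sr34a-1 mock and 50.03, 52.6 and 55.1 in sr34a-1 ABA libraries, against 62.2, 65.2 and 59.3 in WT mock and 60.3, 60.3 and 54.1 in WT ABA libraries, and the ABA values overlapped. At the other end, AT3G28155, AT1G45229, AT3G03370, AT3G52535 and AT4G13575 had 0.322 to 0.672 CPM. PSI there was spread widely: the exon of AT3G52535 ran from 4.15 to 35.05 PSI and that of AT3G03370 from 61.3 to 100 PSI.

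Reads at both sides of an included exon should come in similar numbers, and for many members they did not. Of 384 members with counts for each junction, 123 had under 20% as many reads at the smaller inclusion junction as at the larger, summed over the libraries, and 22 had none at 1 of them. Among the 54 exons called with treatments averaged, 14 were of this kind. They were the exons of KAC2, SR45a, AT3G56580, AT5G65685, AT1G63420, AT1G63770, AT3G29644, FSD2, HEMB1, AT3G02300, AT4G33080, AT2G06025, BBX27 and AT5G22720. The other 40 called exons, among them the 9 exons shown first by sequence except that of KAC2, were not of this kind. Whether the 123 are cassette exons, first exons or alternative splice sites was not settled here, so PSI may not measure skipping for them. The part of such uneven reads in the called differences was not tested.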

How the data were processed

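PolyA RNA-seq of 12 libraries (4 groups of 3 biological replicates, per the labels) was analysed from the deposited tables. PSI in percent was computed by the authors from inclusion and exclusion reads, which stand beside it, per the file headers, in the layout of vast-tools. The authors also deposited gene read counts, not normalized, and RPKM values scaled to gene length and depth, which were not used for tests. The build is TAIR 10, per the submitters' processing notes; the aligner and strand use are not given in the sources used here. The read numbers gave back the deposited PSI within 0.05 in 4060766 values.

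Splicing was tested with limma 3.58.1 in R 4.3.3 on log2 of inclusion over exclusion reads, with 0.5 added to each, in a fit of 4 group means, with moderated variance following the sampling variance of each event. Events of all types needed at least 10 reads in each library and a mean PSI from 2 to 98 (28000 events). Gene counts were fitted in edgeR 4.0.16 by quasi-likelihood (TMM, filterByExpr, 21256 genes), without a replicate block. In gene counts, same-numbered sr34a-1 and WT libraries deviated from their group means together. The correlation was 0.117 to 0.316 on mock medium and 0.1003 to 0.149 with ABA. For sr34a-1 mock replicate 3 it was 0.134, against 0.1331 with a WT mock library of another number. Across treatments, replicates 1 and 2 correlated more with their own number than with another, and replicate 3 less. For replicate 3 the correlation was -0.0408 to 0.026 with its own number, against up to 0.0687 to 0.1197 with another. The numbers may still mark pairs, although no label says what a number shares. Gene-level p-values are from the fit without a block, which called 123 host genes for genotype, against 145 with it. Adjusted p-values are Benjamini-Hochberg over all events or genes, with a threshold of 0.05, and errors are SD or SE as named. Where 0 reads were counted, the floor is 3 counts. Floors cover counting error only, since reads carry no molecular identifiers. On simulated data, 65 of 100 events changed by 3.0 and 18 of 100 changed by 1.5 on the log2 ratio scale were recovered in the averaged genotype comparison over 28000 events, with 5 false calls. The simulation gave every event the same setting for spread between libraries. Its counts therefore do not give the recovery or the error in the real data, where spread differed between events.

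Exon places, phases, splice sites and sequences come from the RefSeq annotation of TAIR10.1, which also gave gene symbols. Members and gene lists were chosen with earlier results of these data known. The named exons were the called members with the 12 largest PSI differences in each comparison, the 6 shortest and the 3 longest, those in listed genes, those nearest the PSI limits, and those of the host genes with the most and the fewest counts. The other called exons, among them those with a stop codon and those in the 5′ UTR, were named after their values were seen.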

Additional observations from a re-analysis of the deposited data

Results flagged for a closer look

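In a 36-base exon of AT2G20100 (chromosome 2, 8681474 to 8681509), every sr34a-1 library with ABA lay below every sr34a-1 mock library, and every WT library with ABA above every WT mock library. The exon lies inside the coding span, is not annotated as coding and holds no stop codon in frame. PSI in sr34a-1 was 0, 1.91 and 2.39 with ABA, against 3.81, 3.99 and 3.97 on mock medium. In WT it was 5.11, 0.80 and 2.04 with ABA, against 0, 0.65 and 0 on mock medium. The change with ABA was -2.49 points in sr34a-1 and 2.43 points in WT, a difference of -4.92 points. It rested on 50 to 96 reads per library, where 1 read is worth over 1 point. The interaction had a log2 ratio difference of -3.15 ± 1.30 (SE), with an unadjusted p of 0.0208 and a limma adjusted p of 0.979 over all events.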

How the results depend on the processing

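The counts of called exons depended on the variance model and on the call rule. Without a variance that follows the sampling variance of each event, limma called 1 exon between genotypes on mock medium, 0 with ABA and 10 averaged. For ABA in WT or averaged over genotypes it called 0. The rule without a p-value gave 9 exons for genotype with ABA, 4 averaged, 1 for ABA in sr34a-1 and 0 for ABA averaged. For ABA in WT, 2 exons were called without the limit on mean PSI, with precision weights, and with only the 6 libraries compared. Without the limit on mean PSI 1 exon was called for ABA in sr34a-1 and 2 averaged, and precision weights gave 2 averaged. Leaving out single libraries gave 9 to 16 exons on mock medium, 17 to 23 with ABA and 45 to 52 averaged, and 8 of 18, 11 of 26 and 37 of 54 calls held in every such fit. For ABA it gave 0 to 1 in WT, 0 to 2 in sr34a-1 and 0 to 2 averaged, and for the interaction 0. Of 709 alternative values for the 38 named results, 146 no longer passed and 0 changed direction.

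For splicing, deviations of same-numbered libraries correlated by -0.0042 to 0.0262 across events. Correlations so near 0 in ratios of few reads cannot settle whether the replicate numbers mark paired samples. With the number as a replicate block, 18, 30 and 56 exons were called between genotypes on mock medium, with ABA and averaged, 1, 0 and 1 for ABA in WT, sr34a-1 and averaged, and 0 for the interaction, and the call of UGT80B1 with ABA was lost (adjusted p 0.0501), but no other call among the named exons was. Host genes called were 145 for genotype and 168 for ABA with the block, which kept all 123 and 149 calls made without it, and 94 to 124 and 139 to 148 without single libraries. On simulated data with the same setting for spread in every event, a log2 ratio change of 1.5 was recovered in 18 of 100 events.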
